A study of Carassius auratus with 10 samples.

Results

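Goldfish cultures labeled as radial glial cells and treated with secretoneurin A (SNa) were set directly against cultures treated with SKF 38393 (SKF). The untreated cultures did not enter this comparison. Reads of the transcripts (unigenes) that carried the same gene symbol were added, each pool was scaled to counts in 1000000 of its own reads (CPM), and symbols of 1 CPM or more in either pool were kept. This gave 12965 symbols of the 17264 with reads in the SNa or SKF pool, and of 17474 with reads in any pool. The member nearest to the limit had 1.00 CPM in its higher pool and the nearest symbol left out had 0.992 CPM.

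The SNa group was 3 cultures given 1000 nM SNa for 24 h, and the SKF group was 3 cultures given 10 µM SKF for 24 h. The labels number the SNa cultures 1, 4 and 5 and the SKF cultures 1, 2 and 5. The pools may therefore not come from matched cultures, and culture and treatment cannot be told apart. The labels list 4 untreated control cultures, while the paper compared 3 with SNa, so the number in the control pool is not certain. The control pool is quoted as a level, and for the spread of each treated pool against it. All groups were passage 3 primary cultures from the hypothalamus and telencephalon of adult female goldfish (*Carassius auratus*), labeled as radial glial cells. They were grown in medium with fetal bovine serum, and the sequencing was of poly(A) RNA. For the exposure, the paper states that SNa was diluted in medium without serum. It does not describe the medium of the SKF and control cultures during that time. The files hold 1 pooled value per group and transcript, so spread between cultures is unknown, no difference could be tested, and no p-value is given. Each log2 difference (SNa over SKF) has an exact 95% counting interval instead, which covers counting error only. In units of 1000000 reads, the pools held 64.8 (SNa), 86.7 (SKF) and 148 (control), and transcripts with a symbol took 82.3%, 82.8% and 81.2% of them.

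Radial glia are the progenitors and main glial cells of the fish brain, and in the adult forebrain they go on dividing and make estrogen. SNa is a peptide cut from secretogranin 2, released by neurons that lie close to these cells. SKF is a selective agonist of the dopamine D1 receptor, which raises cAMP through a stimulatory G protein. The comparison asks in which genes the pools given a neuropeptide and a dopaminergic agonist differ. Symbols of dopamine receptors were scarcely read. Only drd4b and drd2b had reads in the SNa or SKF pool, so no symbol of a D1 receptor was read there. An unread symbol need not mean an unread gene, since 13248 transcripts had a protein hit but no symbol. The symbol drd4b had 34 reads in the SNa pool, 49 reads in the SKF pool and 74 reads in the control pool, which is under 1 CPM in each. The dopamine D2 receptor symbol drd2b had 4 reads in the SNa pool and 0 in the SKF pool, where a count of 0 allows up to 0.0346 CPM. Fish carry secretogranin 2 as paralogs a and b, and only the symbol of the b paralog, scg2b, had reads in the SNa or SKF pool. It had 0.587 CPM in the SNa pool, 0.715 CPM in the SKF pool and 0.744 CPM in the control pool.

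The SNa and SKF pools were close to each other. The median log2 difference over the 12965 members was -0.02 (SD 0.22 across genes), and 90.4% of members differed by less than 1.25-fold. Across the 12963 members read in both pools, the log2 levels had a Pearson r of 0.996, a description of genes that share the same pair of pools. Among the 7792 members of 10 CPM or more the SD was 0.13 and 96.8% lay within 1.25-fold. Over the same 7792 members the SNa pool against the control pool had an SD of 0.39 and 1.09% of members past 2-fold, and the SKF pool against the control pool had an SD of 0.41 and 1.31% past 2-fold. These last comparisons share the control cultures, and they use the CPM of each pool's own reads. The spread between SNa and SKF narrowed with the level, with an SD of 0.38 at 1 to 3 CPM, 0.15 at 10 to 30 CPM and 0.09 at 1000 CPM or more. The median distance from the centre to an end of the counting interval was 0.53, 0.16 and 0.02 at those levels. That distance is a 95% limit and the spread is 1 SD, so the values are not in like units. At 100 to 1000 CPM the distance was 0.05. An interval therefore clears 0 at a smaller difference in abundant genes. In the lists below, shares of intervals wholly on 1 side of 0 depend on the levels of the members. They are not matched for level with the shares over all members.

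**Figure D1:**
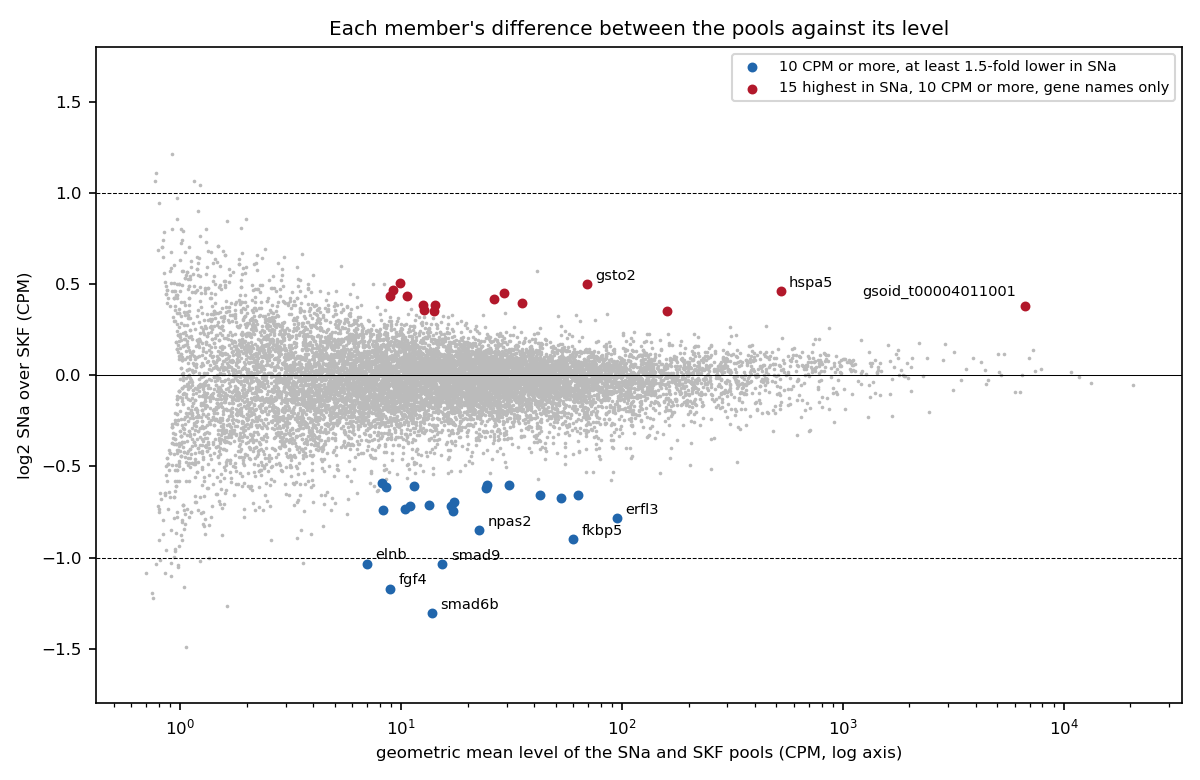
Each grey point is a member, with its level (geometric mean of the SNa and SKF pools, CPM, log axis) across and its log2 SNa over SKF upwards, and dashed lines mark 2-fold. Blue points are the 23 members of 10 CPM or more that were at least 1.5-fold lower in SNa, red points the 15 highest with gene names, and 3 symbols above the upper edge are not drawn. The cloud narrows with level, and smad6b, fgf4, smad9 and elnb lie at or under the lower dashed line.

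At least 2-fold differences were few. In the SNa pool 8 members (0.0617% of 12965) were at least 2-fold higher and 20 (0.154%) at least 2-fold lower. Of these, 7 of the 8 and 15 of the 20 were under 3 CPM in both pools. At 10 CPM or more, 0 of 7792 members (0%) were 2-fold higher in SNa and 4 (0.0513%) were 2-fold lower, namely smad6b, fgf4, smad9 and elnb. The 10 CPM had to be met in either pool, so a member can pass through the pool where it is high. In the SNa pool smad6b, fgf4 and elnb had 8.75, 5.94 and 4.91 CPM, so they passed through the SKF pool only. At 1.5-fold, a limit added after the values were seen, the counts at 10 CPM or more were 0 higher (0%) and 23 lower (0.295%), and over all members 68 higher (0.524%) and 169 lower (1.3%). For 7 of the 23, the whole counting interval lay beyond 1.5-fold. Others of the 23, such as loxl3a and slc16a3, also reached 10 CPM in the SKF pool only. The 15 lowest named genes were read from 43 transcripts of 50 reads or more in the SNa and SKF pools together. Of these, 43 of the 43 were lower in SNa, while for the 15 highest 31 of 31 were higher in SNa. These symbols were picked by their summed difference, so the transcript counts are a description.

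**Figure D2:**
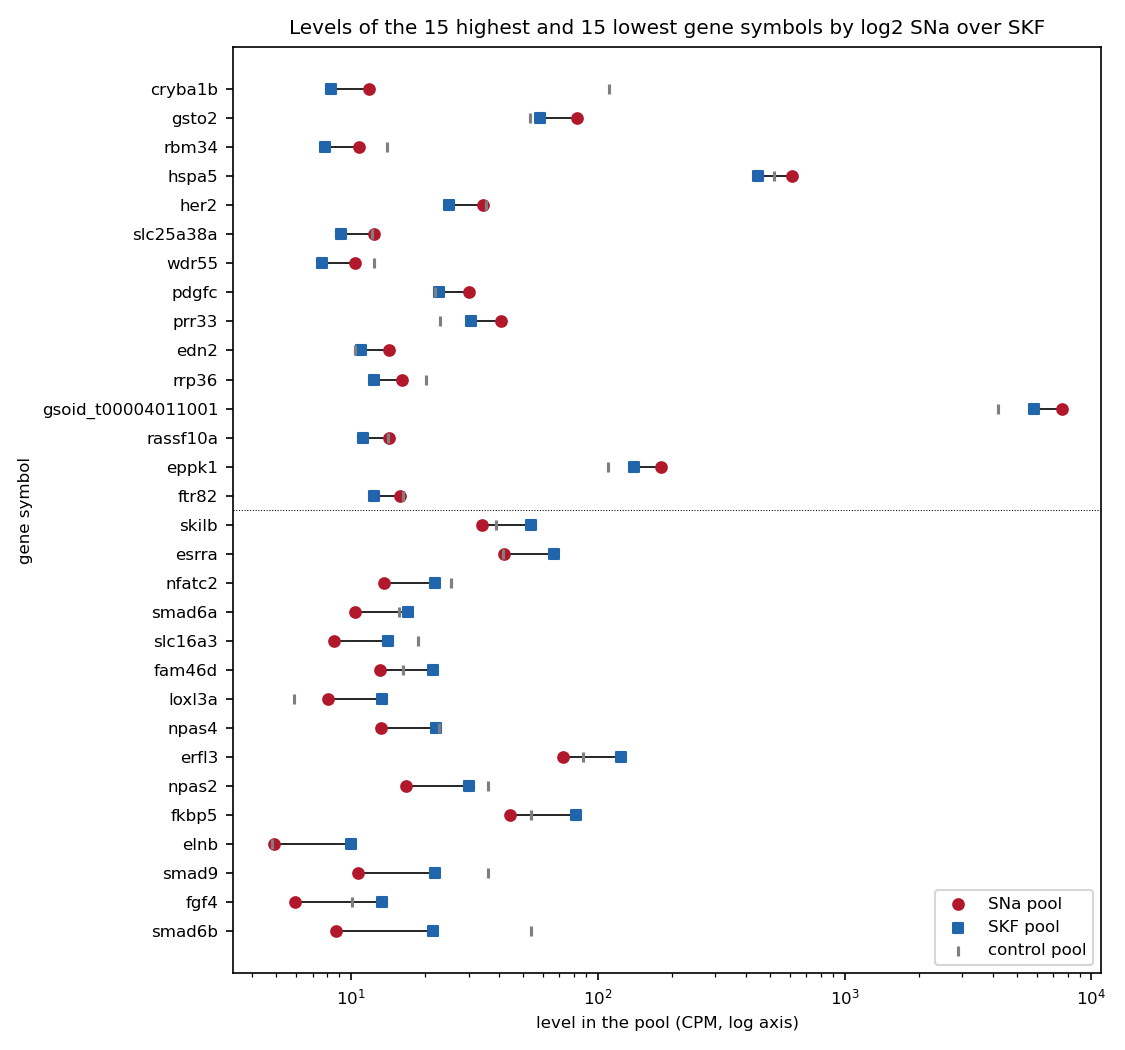
Levels (CPM, log axis) of the 15 highest (above the dotted line) and 15 lowest gene symbols of 10 CPM or more, in the SNa pool (red circles), the SKF pool (blue squares) and the control pool (grey bars), with a line joining SNa and SKF. The control level lay between SNa and SKF for some genes, such as fkbp5 and fgf4, and far above both for others, such as smad6b and cryba1b.

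Of the 15 lowest named genes in SNa, 4 (smad6b, smad9, smad6a and skilb) stood in the list of the bone morphogenetic protein (BMP) and transforming growth factor beta (TGF-beta) pathway. In this pathway ligands bind receptor kinases, which activate receptor-regulated Smad proteins. Inhibitory Smads and the corepressors Ski and SnoN then damp the response, and Smad6 and Smad7 are themselves induced by it. The inhibitory Smad gene smad6b had 8.75 CPM in the SNa pool, 21.6 CPM in the SKF pool and 53.8 CPM in the control pool. This was a log2 difference of -1.30 (counting interval -1.499 to -1.109), with SNa the lowest of the 3 pools and control the highest. Its copy smad6a had 10.4 CPM in SNa and 17.1 CPM in SKF, near the 15.7 CPM of control (log2 -0.71, interval -0.90 to -0.52). The other inhibitory Smad, smad7, had 212 CPM in SNa and 303 CPM in SKF, against 326 CPM in control (log2 -0.51, interval -0.56 to -0.47). The BMP receptor-regulated Smad gene smad9 had 10.7 CPM in SNa, 22.0 CPM in SKF and 36.0 CPM in control (log2 -1.03, interval -1.22 to -0.86). Of its relatives, smad1 differed by -0.28 and smad5 by -0.21 on the log2 scale, while smad2, which serves TGF-beta and activin receptors, differed by -0.04 with an interval that included 0 (-0.12 to 0.04).

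Some corepressors, antagonists and targets of the pathway were lower in SNa as well. In the list of 58 members, 12 were at least 1.25-fold lower in SNa and 3 at least 1.25-fold higher. Over all members these shares were 6.63% and 2.95%. SnoN is encoded by skila and skilb, and skilb had 33.9 CPM in SNa and 53.5 CPM in SKF (log2 -0.66), while skila had 75.9 CPM in SNa and 110 CPM in SKF (log2 -0.53). Follistatin, which traps activins, was read as fstb with 6.70 CPM in SNa and 10.1 CPM in SKF (log2 -0.59, interval -0.83 to -0.35). The BMP target id3, a helix-loop-helix inhibitor that keeps progenitors undifferentiated, had 171 CPM in SNa, 241 CPM in SKF and 208 CPM in control (log2 -0.49, interval -0.54 to -0.45). Another target, id1, had 811 CPM in SNa, 922 CPM in SKF and 1443 CPM in control (log2 -0.19). The copy id2b went the other way, with 13.1 CPM in SNa and 10.4 CPM in SKF (log2 0.33, interval 0.13 to 0.52). Ligands differed little, with tgfb1a at -0.14, tgfb2 at -0.20, tgfb3 at -0.15 and the activin subunit inhbaa at -0.19, but inhbb at 0.10. Of receptors, tgfbr1b was at -0.42 and tgfbr2 at 0.07. Over the whole list of 58 members, 44 were below 0, 26 had a counting interval wholly below 0 and 3 wholly above 0, with a median of -0.14. Over all 12965 members, 56.6% were below 0, and intervals lay wholly below 0 in 16.7% and wholly above 0 in 8.49%, and at 10 CPM or more 56.7% were below 0, with intervals wholly below 0 in 22.6% and wholly above 0 in 11.6%.

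The growth factor gene fgf4, a ligand of the fibroblast growth factor family, was the second lowest named gene. It had 5.94 CPM in the SNa pool, 13.4 CPM in the SKF pool and 10.1 CPM in the control pool (log2 -1.17, interval -1.41 to -0.93). SNa lay under control, and SKF above it. Of the 28 members of the FGF list, 21 were below 0 (75% against 56.6% of all members), but only 3 had an interval wholly below 0 (10.7% against 16.7%) and 1 wholly above 0. The list median was -0.06, and the feedback inhibitor spry4 had 303 CPM in SNa and 298 CPM in SKF. Its relative spry2 had 30.1 CPM in SNa and 26.7 CPM in SKF (log2 0.17), and dusp6, a phosphatase induced by FGF signaling, had 102 CPM in SNa and 116 CPM in SKF (log2 -0.18).

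Genes of the circadian clock, the transcription feedback loop that runs in most cells, were mostly lower in SNa. Of 38 members, 34 were below 0 (89.5% against 56.6% of all members). Their median was -0.17, and 20 of the 38 had an interval wholly below 0 and 1 wholly above 0. That was 52.6% below, against 16.7% of all members and 22.6% at 10 CPM or more. The activator npas2, a relative of clock, had 16.8 CPM in SNa, 30.2 CPM in SKF and 35.8 CPM in control (log2 -0.85, interval -0.998 to -0.706). The repressor nr1d2a (Rev-erb beta) had 72.6 CPM in SNa, 108 CPM in SKF and 70.304 CPM in control (log2 -0.58, interval -0.65 to -0.50). Here the SNa level was next to control and the SKF level was apart. The same order held for the period genes per1a, with 55.4 CPM in SNa, 73.9 CPM in SKF and 48.2 CPM in control, and per1b, with 66.7 CPM in SNa, 86.5 CPM in SKF and 53.5 CPM in control. The output factor hlfa had 94.1 CPM in SNa, 129 CPM in SKF and 110.5 CPM in control (log2 -0.45). The partner genes clocka and clockb were at -0.14 and -0.06, and the exceptions above 0 were csnk1e, tefa, cry4 and cry5. Within cry5 the levels were 4.04 CPM in SNa and 3.08 CPM in SKF (log2 0.39, interval 0.03 to 0.75).

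The second messenger of D1 receptors, whose symbols were not read here, is cAMP. The list of cAMP signaling genes and targets had 34 of 45 members below 0 (75.6% against 56.6% of all members). Its median was -0.14. Of the 45, 17 had an interval wholly below 0 and 1 wholly above 0. That was 37.8% below, against 16.7% of all members and 22.6% at 10 CPM or more. Such shares were not particular to cAMP genes. The apoptosis list had 76.4% below 0 and 34.5% of intervals wholly below 0, and the Wnt list 77.1% and 20%. Among G protein subunits and RGS proteins these were 80% and 20%. The cAMP list holds per1a and per1b, which also stand in the clock list. Phosphodiesterases, which break cAMP down, were among the lowest members. The gene pde8b had 24.9 CPM in SNa, 37.8 CPM in SKF and 44.3 CPM in control (log2 -0.60, interval -0.72 to -0.48). Its relative pde8a had 11.7 CPM in SNa, 15.7 CPM in SKF and 16.9 CPM in control, and pde4bb had 78.2 CPM in SNa, 103 CPM in SKF and 91.2 CPM in control (log2 -0.40). Of other members, per1a was at -0.42, per1b at -0.38, the kinase sik1 at -0.25 and the repressor crema at -0.21. The cyclase gene adcy5 had 3.74 CPM in SNa and 5.37 CPM in SKF (log2 -0.52, interval -0.85 to -0.20). Of the dopamine list 5 symbols were members. The dopamine-degrading methyltransferase comtb had 9.06 CPM in SNa and 12.7 CPM in SKF (log2 -0.49), and the others lay from -0.32 (the transporter slc6a3, at 1.85 CPM in SNa and 2.32 CPM in SKF) to 0.07 (the biopterin enzyme qdpra).

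Immediate-early genes, which cells transcribe within minutes of a stimulus, were mostly lower in SNa, with some higher. Of 37 members, 26 were below 0, 20 had an interval wholly below 0, and 6 had one wholly above 0 (median -0.09). Over all members, 56.6% were below 0. Intervals wholly below 0 were 54.1% of the list, against 16.7% of all members and 22.6% at 10 CPM or more. Those wholly above 0 were 16.2% of the list, against 8.49% and 11.6%. The activity-dependent factor npas4 had 13.3 CPM in SNa, 22.2 CPM in SKF and 22.9 CPM in control (log2 -0.74, interval -0.91 to -0.58). The EGR corepressor nab2 had 13.5 CPM in SNa and 19.5 CPM in SKF (log2 -0.54). The AP-1 gene fosb had 832 CPM in SNa and 994 CPM in SKF (log2 -0.26), and the orphan receptor nr4a3 had 637 CPM in SNa and 783 CPM in SKF (log2 -0.30). By contrast egr1 had 800 CPM in SNa and 698 CPM in SKF (log2 0.20, interval 0.17 to 0.22), and klf2a had 33.0 CPM in SNa and 26.1 CPM in SKF (log2 0.34). Within the EGR family, egr3 was on the other side, at 124.6 CPM in SNa and 151 CPM in SKF.

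**Figure D3:**
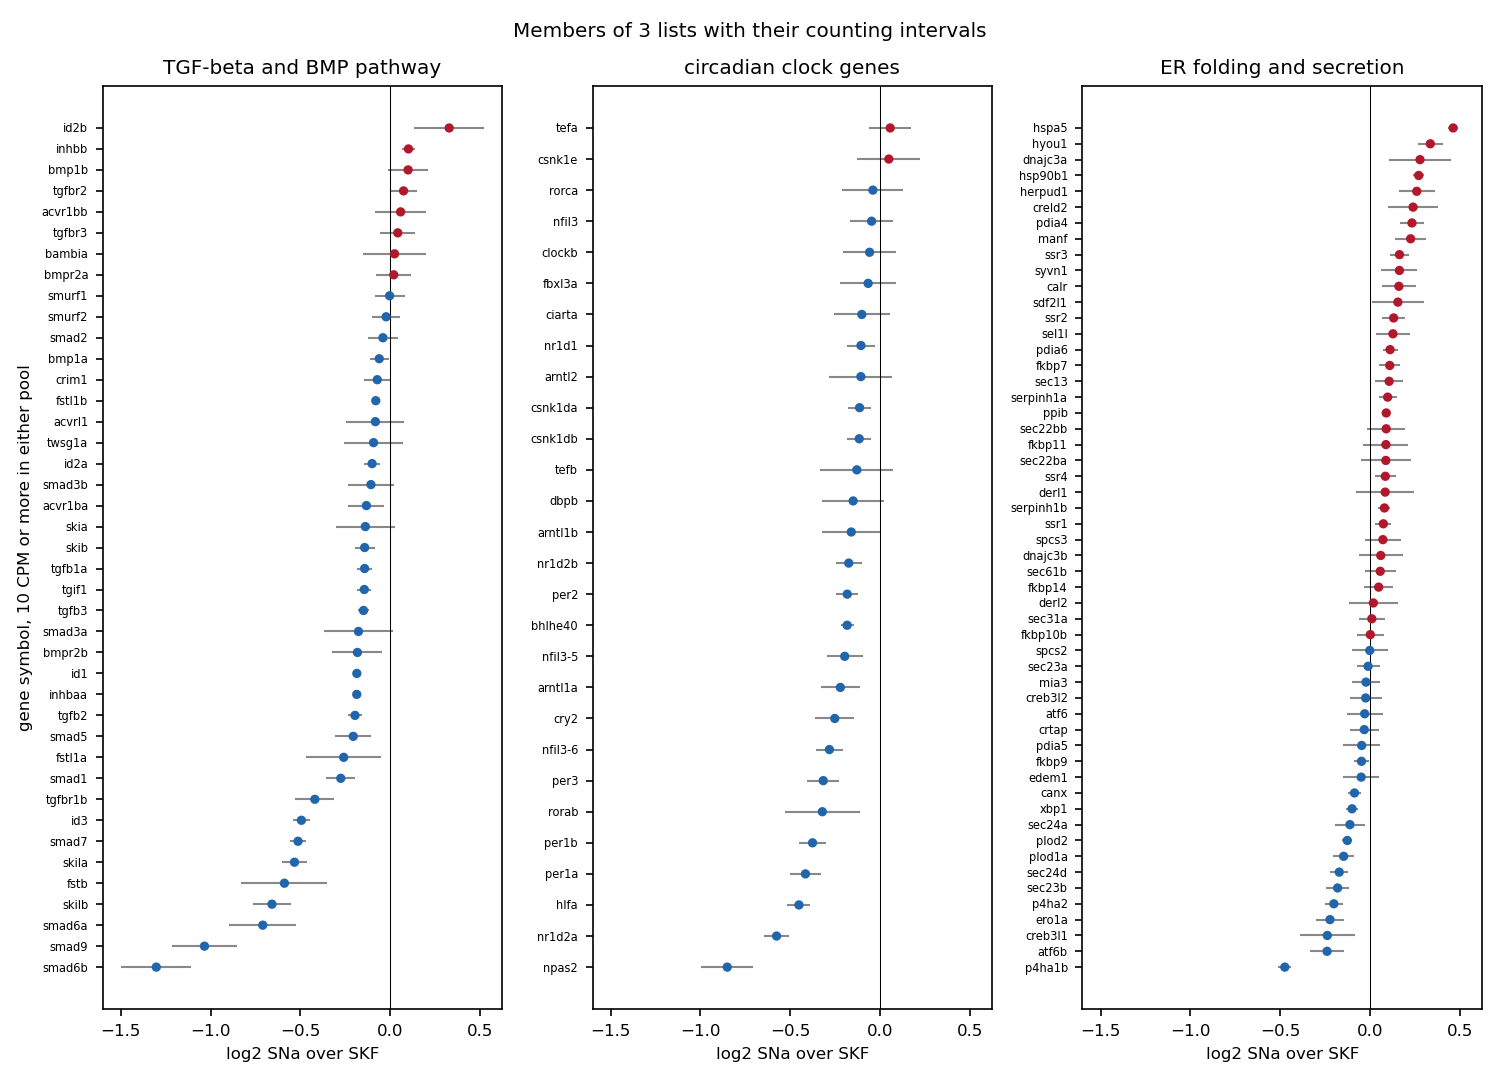
Log2 SNa over SKF with its 95% counting interval for the members of 10 CPM or more of the TGF-beta and BMP, clock and ER folding lists, red above 0 and blue below. The BMP and clock points run far to the left at the bottom (smad6b -1.30, npas2 -0.85), while the ER list has hspa5 (0.46) at the top and p4ha1b (-0.47) at the bottom.

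Other regulators were among the 15 lowest genes. The gene fkbp5 encodes a co-chaperone of steroid hormone receptors that glucocorticoids induce, and it had 44.0 CPM in SNa, 82.1 CPM in SKF and 53.7 CPM in control (log2 -0.90, interval -0.99 to -0.81). Of its transcripts, 6 had 50 reads or more in the SNa and SKF pools together, and 6 of the 6 were lower in SNa. The gene erfl3, of the ETS repressor family, had 72.5 CPM in SNa, 124.7 CPM in SKF and 87.0 CPM in control (log2 -0.78, interval -0.85 to -0.71), the lowest difference of the members of 100 CPM or more. The nuclear receptor esrra, a regulator of mitochondrial genes in mammals, had 41.9 CPM in SNa, 66.8 CPM in SKF and 41.3 CPM in control (log2 -0.67). In these 3 genes the SKF pool was the highest of the pools. For nfatc2, a factor activated by calcineurin, the levels were 13.6 CPM in SNa, 22.0 CPM in SKF and 25.5 CPM in control (log2 -0.69). The gene fam46d had 13.1 CPM in SNa and 21.6 CPM in SKF (log2 -0.72). The DNA demethylase tet1, at 124 CPM in SNa and 180 CPM in SKF, differed by -0.53.

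Genes of glucose use were below 0 more often than all members were. Of 50 members of the glycolysis, glucose and lactate list, 37 were below 0 (74% against 56.6% of all members). Of the 50, 25 had an interval wholly below 0 and 1 wholly above 0 (median -0.09). That was 50% below, against 16.7% of all members and 22.6% at 10 CPM or more. The lactate exporter slc16a3 had 8.58 CPM in SNa, 14.1 CPM in SKF and 18.7 CPM in control (log2 -0.72, interval -0.93 to -0.51). It was the extreme gene most dependent on which transcripts were counted, at -0.19 to -0.93 over the alternatives. The glucose-trapping enzyme hk2 had 57.0 CPM in SNa, 82.3 CPM in SKF and 76.2 CPM in control (log2 -0.53). The glucose transporter slc2a1b had 550 CPM in SNa, 690 CPM in SKF and 562 CPM in control (log2 -0.33). The angiogenic factor VEGF was read from both of its copies, vegfab with 19.6 CPM in SNa and 30.1 CPM in SKF (log2 -0.62) and vegfaa with 181 CPM in SNa and 234 CPM in SKF (log2 -0.37). The oxygen sensor egln3 had 8.95 CPM in SNa and 12.6 CPM in SKF (log2 -0.49). Other enzymes of glucose breakdown varied, with pfkpa at -0.33, tpi1b at -0.20 and ldha at -0.16, but pfkpb at 0.05 and eno1b at 0.01. The enzyme gapdhs had 1905 CPM in SNa and 1911 CPM in SKF.

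Among members lower in SNa, matrix genes had the largest differences in CPM. Fibronectin, fn1b, had 20118 CPM in SNa, 20918 CPM in SKF and 10240 CPM in control, the collagen chain col1a2 had 6148 CPM in SNa and 6550 CPM in SKF, and sparc had 5801 CPM in SNa and 6183 CPM in SKF. As log2 values these were only -0.06, -0.09 and -0.09. Larger ratios stood at several levels. The collagen chain col1a1b had 1539 CPM in SNa and 1800 CPM in SKF (log2 -0.23). The gene thbs4b had 1202 CPM in SNa and 1408 CPM in SKF (log2 -0.23). Elastin, elnb, had 4.91 CPM in SNa, 10.0 CPM in SKF and 4.81 CPM in control (log2 -1.03, interval -1.30 to -0.77), so SNa was at the control level. The crosslinking enzyme loxl3a had 8.07 CPM in SNa, 13.4 CPM in SKF and 5.92 CPM in control (log2 -0.73). The collagen hydroxylase p4ha1b had 280 CPM in SNa, 389 CPM in SKF and 223 CPM in control (log2 -0.47, interval -0.51 to -0.44). Of collagen chains 26 of 31 members were below 0 (17 intervals wholly below 0, 2 above, median -0.09). Of matrix proteases, inhibitors and crosslinkers 41 of 49 were (26 below, 6 above, median -0.11). These were 83.9% and 83.7% below 0, against 56.6% of all members. Intervals wholly below 0 were 54.8% and 53.1%, against 16.7% of all members and 22.6% at 10 CPM or more. Periostin differed between its copies, with postna at -0.17 and postnb, at 3323 CPM in SNa and 3045 CPM in SKF, at 0.13. Lysosome and autophagy genes were lower in SNa in 57 of 65 members (40 intervals wholly below 0, 2 above, median -0.10), among them the proteases ctsk at -0.35 and ctsla at -0.20. As shares of that list, 87.7% were below 0 and 61.5% had an interval wholly below 0.

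Progenitor transcription factors were also mostly lower in SNa. Of the 28 members of the SOX and progenitor list 25 were below 0 (11 intervals wholly below 0, 0 above, median -0.17). As shares, 89.3% were below 0, against 56.6% of all members. Intervals wholly below 0 were 39.3%, against 16.7% of all members and 22.6% at 10 CPM or more. The neurogenic factor sox11b had 10.2 CPM in SNa, 14.4 CPM in SKF and 18.6 CPM in control (log2 -0.49), its copy sox11a had 4.92 CPM in SNa and 6.82 CPM in SKF (log2 -0.47), and the glial factor sox9a had 19.8 CPM in SNa and 25.1 CPM in SKF (log2 -0.34). The stem cell factor sox2 differed less, at 195 CPM in SNa, 209 CPM in SKF and 335 CPM in control (log2 -0.10, interval -0.15 to -0.05). In the Notch list 29 of 39 members were below 0 (74.4%). Its intervals lay wholly below 0 in 30.8% and wholly above 0 in 15.4%. The ligand jag1a was at -0.42 and the target hey1 at -0.33, while the hairy-related genes her2, her9 and her6 were at 0.45, 0.17 and 0.08. Homeobox and regional factors were below 0 in 23 of 29 members (11 intervals wholly below 0, 0 above, median -0.14). As shares of that list these were 79.3% and 37.9%.

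Inflammatory signaling was mixed between groups of genes. Interleukin and JAK-STAT genes were below 0 in 32 of 41 members (17 intervals wholly below 0, 0 above, median -0.10), with the receptor chain il13ra1 at 37.3 CPM in SNa and 47.7 CPM in SKF (log2 -0.35) and the cytokine-induced inhibitor cish at 21.4 CPM in SNa and 27.1 CPM in SKF (log2 -0.34). In the TNF, toll-like receptor and NF-kB list 32 of 47 members were below 0 (16 intervals wholly below 0, 3 above, median -0.08). There the flagellin receptor tlr5a had 3.69 CPM in SNa and 5.75 CPM in SKF (log2 -0.64), the factor cebpd 68.0 CPM in SNa and 93.5 CPM in SKF (log2 -0.46), and the prostaglandin synthase ptgs2b 29.6 CPM in SNa and 38.9 CPM in SKF (log2 -0.39). The chemokines cxcl8a, at 62.8 CPM in SNa and 56.2 CPM in SKF, and cxcl18b, at 402 CPM in SNa and 360 CPM in SKF, were both at 0.16, while cxcl12a, at 70.5 CPM in SNa and 81.5 CPM in SKF, was at -0.21. Of the 9 members of the chemokine list 4 were below 0 (median 0.03). Interferon and antiviral genes were evenly split, with 15 of 32 members below 0 and a median of 0.01. The share below 0 was 78% in the interleukin list and 68.1% in the TNF list, against 56.6% of all members. Their intervals wholly below 0 were 41.5% and 34%, against 16.7% of all members and 22.6% at 10 CPM or more.

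The adenosine receptor adora2b, which couples to the same stimulatory G protein as D1 receptors, had 59.6 CPM in SNa, 78.8 CPM in SKF and 49.5 CPM in control (log2 -0.40, interval -0.48 to -0.32), so both treated pools lay above control. Of neurotransmitter receptors 12 of 16 members were below 0, and 4 intervals lay wholly below 0 (25% against 16.7% of all members, and 22.6% at 10 CPM or more) and 0 above (median -0.06). The regulator of G protein signaling rgs5b had 36.8 CPM in SNa, 48.8 CPM in SKF and 116 CPM in control (log2 -0.41). Axon guidance genes were below 0 in 48 of 66 members (20 intervals wholly below 0, 5 above, median -0.09, but 0.01 for transcripts numbered above the median). As shares, 72.7% were below 0, against 56.6% of all members, and 30.3% had an interval wholly below 0. The semaphorin sema4ba was at 3.33 CPM in SNa and 5.90 CPM in SKF (log2 -0.82) and slit2 at 7.35 CPM in SNa and 10.6 CPM in SKF (log2 -0.53). The heme oxygenase hmox1a had 83.6 CPM in SNa, 67.9 CPM in SKF and 192.5 CPM in control (log2 0.30), and its relative hmox2b was at -0.34. Steroid synthesis genes were split, with 7 of 16 members below 0, and the steroid reductase srd5a2a had 26.4 CPM in SNa and 22.6 CPM in SKF (log2 0.23).

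At 10 CPM or more, no symbol that was higher in SNa reached 1.5-fold. The highest member of 10 CPM or more was the clone name si:dkeyp-122a9.1, with 50.3 CPM in SNa and 33.9 CPM in SKF (log2 0.57), which the naming rule leaves out and which was picked after its values were seen. Of named genes, the chaperone BiP, hspa5, which senses unfolded protein in the endoplasmic reticulum (ER), had 614 CPM in SNa, 445 CPM in SKF and 520 CPM in control (log2 0.46, interval 0.43 to 0.49). SNa lay above control and SKF below it. Other ER chaperones followed, with hyou1 at 96.3 CPM in SNa and 76.3 CPM in SKF (log2 0.34), hsp90b1 at 493 CPM in SNa and 409 CPM in SKF (log2 0.27), pdia4 at 0.23 and manf at 0.23. The ER list as a whole was mixed, since 37 of 58 members were above 0 and 21 below (22 intervals wholly above 0, 13 wholly below, median 0.07). Its median was -0.02 when only transcripts numbered above the median number were counted. Intervals lay wholly above 0 in 37.9%, against 8.49% of all members and 11.6% at 10 CPM or more. They lay wholly below 0 in 22.4%, against 16.7% and 22.6%. The lowest members of the ER list were the collagen enzyme p4ha1b and the stress sensor atf6b (-0.24), and the ER stress factor xbp1 was at -0.10.

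The glutathione transferase gsto2 had 82.8 CPM in SNa, 58.5 CPM in SKF and 53.4 CPM in control (log2 0.50, interval 0.42 to 0.58). The growth factor pdgfc had 30.3 CPM in SNa, 22.7 CPM in SKF and 21.9 CPM in control (log2 0.42), and endothelin, edn2, had 14.3 CPM in SNa and 10.96 CPM in SKF (log2 0.39). In these genes SKF was close to control. The most abundant member of the 15 highest was gsoid_t00004011001, a symbol taken from a hit of 64.2% identity to a protein with no name. It had 7599 CPM in SNa, 5848 CPM in SKF and 4176 CPM in control (log2 0.38, interval 0.37 to 0.39), the largest CPM difference of any member that was higher in SNa. Among others, epiplakin, eppk1, had 180 CPM in SNa and 141 CPM in SKF (log2 0.35), and prr33 had 40.6 CPM in SNa and 30.8 CPM in SKF (log2 0.40). The ribosome biogenesis genes rrp36, at 16.2 CPM in SNa and 12.4 CPM in SKF, and wdr55, at 10.4 CPM in SNa and 7.68 CPM in SKF, were at 0.38 and 0.44. The RNA-binding gene rbm34 was at 0.47, the mitochondrial glycine carrier slc25a38a at 0.44, rassf10a at 0.36 and the finTRIM gene ftr82 at 0.35.

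Some lists lay above 0 by a small amount. For scale, transcripts of 200 reads or more in the SNa and SKF pools together were split into 10 groups by transcript number. The median log2 of these groups ran from -0.07 to 0.05, so small list medians of either sign are of like size. The cause of this was not tested. Of all members, 43.4% were above 0 and 8.49% had intervals wholly above 0 (11.6% at 10 CPM or more). Cytosolic ribosomal proteins were above 0 in 72 of 73 members, with 61 intervals wholly above 0 and 0 below, a median of 0.07 and a highest value of 0.11. Together they took 5.22% of the SNa reads, 5.001% of the SKF reads and 6.43% of the control reads. Nuclear genes of the respiratory chain were above 0 in 58 of 65 members (17 intervals wholly above 0, 0 below, median 0.06), and proteasome subunits in 45 of 51 (26 intervals wholly above 0, 3 below, median 0.08, lowest member -0.82). The 4 mitochondrially encoded members were within -0.01 to 0.03, at 27689 CPM in SNa, 27518 CPM in SKF and 43071 CPM in control in sum. Actin, myosin and contractile genes were above 0 in 39 of 51 members (31 intervals wholly above 0, 3 below, median 0.07). In that list cnn2 was at 0.22, smtnb at 0.22, actb1 at 0.19 and myl9a at 0.17, and the most abundant were actb2, with 7211 CPM in SNa and 6753 CPM in SKF (log2 0.09), and acta2, with 5258 CPM in SNa and 4843 CPM in SKF (log2 0.12).

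**Figure D4:**
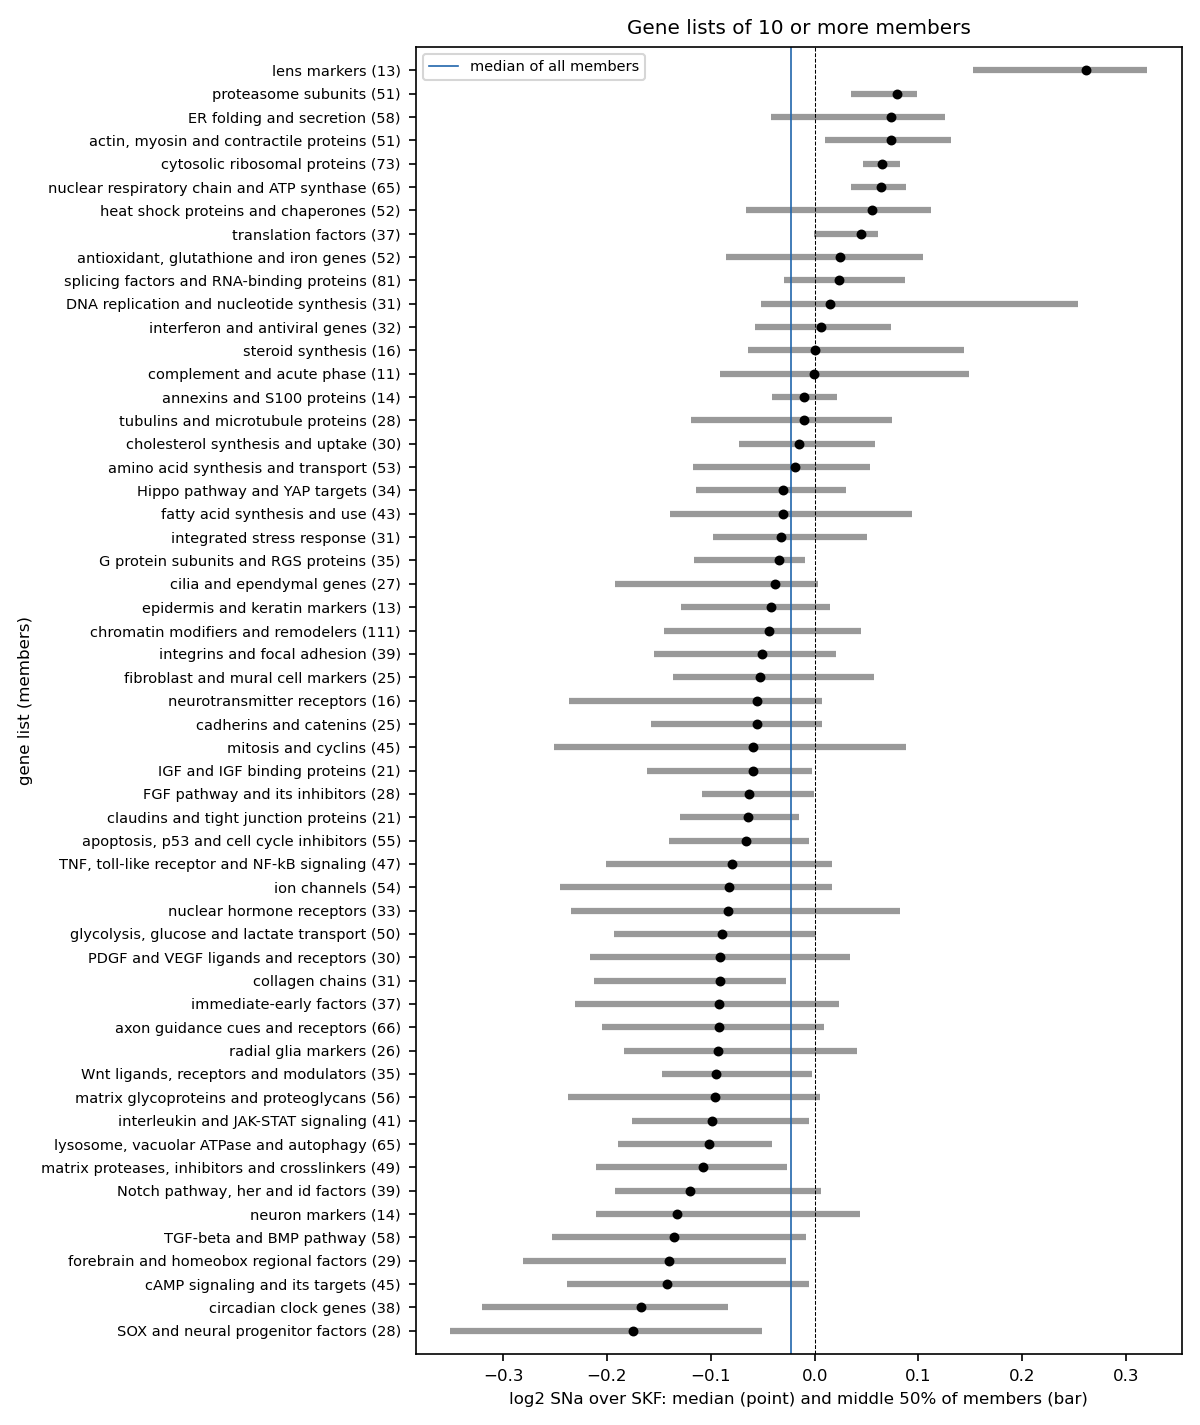
Median log2 SNa over SKF (black point) and the middle 50% of members (grey bar) for each list of 10 or more members, the number of members in brackets, with the median of all 12965 members (-0.02) as the blue line. Protein machines such as ribosome and proteasome lie right of 0 with short bars, and SOX, clock, cAMP and BMP lists lie left of it with long ones.

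Among weak members past 2-fold, the replication helicase genes mcm6, at 1.39 CPM in SNa and 0.600 CPM in SKF (log2 1.21, interval 0.48 to 1.97), and mcm3, at 1.11 CPM in SNa and 0.530 CPM in SKF (log2 1.07, interval 0.27 to 1.89), were higher in SNa. The list of replication genes had a median of 0.01, with 17 of 31 members above 0 and 4 intervals wholly above 0. Those 4 were 12.9% of the list, against 8.49% of all members and 11.6% at 10 CPM or more. The more abundant mcm7, at 18.2 CPM in SNa and 18.6 CPM in SKF, and pcna, at 16.4 CPM in SNa and 17.3 CPM in SKF, were at -0.04 and -0.07. On the lower side zdhhc18b had 0.633 CPM in SNa and 1.78 CPM in SKF (log2 -1.49, interval -2.27 to -0.77), the lowest of all members, and the deubiquitinase gene cyldb had 1.05 CPM in SNa and 2.53 CPM in SKF (log2 -1.27, interval -1.87 to -0.70). The cell cycle inhibitor cdkn2c had 0.957 CPM in SNa and 1.91 CPM in SKF (log2 -1.0001, interval -1.64 to -0.39). Members read in SNa but hardly in SKF were 3, and their symbols come from protein hits of low identity, so they name no goldfish gene. The symbol h671_21525 had 419 reads in SNa, 4 reads in SKF and 0 in control, and its transcript with the most reads in SKF matched a protein at 33.5% identity. The symbol m91_21448 had 113 reads in SNa and 0 in SKF and control, with the lower end of its counting interval at log2 4.31. The symbol hr44h had 98 reads in SNa and 0 in SKF and control, with the lower end at log2 4.10.

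Fish carry many genes as copies named a and b, which were counted here as separate symbols. Where copies are alike, reads can be split between them. The copies named a and b were both at least 1.25-fold lower in SNa for smad6, skil, per1 and vegfa. So were the separate genes pde8a and pde8b, and all were picked after their values were seen. Among 571 symbol pairs ending in a and b at 10 CPM or more, these 5 had both symbols lower by that much. In 28 pairs only 1 symbol was, and in 0 pairs were both at least 1.25-fold higher. The log2 differences of paired symbols had a Pearson r of 0.35. Over all members 6.63% were at least 1.25-fold lower and 2.95% at least 1.25-fold higher, and at 10 CPM or more 2.85% and 0.334%.

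The label of the cultures was checked against marker genes. From earlier work, the paper states that the large majority of cells in such cultures carry both glial fibrillary acidic protein and brain lipid binding protein. Radial glia markers were read here, but fibroblast and mural markers took more reads in every pool. RNA levels do not give shares of cells, so the markers do not settle the label. Glial fibrillary acidic protein, gfap, had 1134 CPM in SNa, 1092 CPM in SKF and 1622 CPM in control (log2 0.05), and vimentin, vim, had 2311 CPM in SNa, 2318 CPM in SKF and 3697 CPM in control. Brain lipid binding protein, fabp7a, had 10.0 CPM in SNa, 10.6 CPM in SKF and 303 CPM in control, while its other copy, fabp7b, had 151 CPM in SNa, 165 CPM in SKF and 699 CPM in control. The calcium-binding marker s100b had 12.9 CPM in SNa, 14.6 CPM in SKF and 19.1 CPM in control. The symbol of brain aromatase, cyp19a1b, had no reads in either pool. The paper lists aromatase B among the radial glia markers that it identified in these cultures. Here 13248 transcripts had a protein hit but no symbol, so an unread symbol need not mean an unread gene. The radial glia list had 26 members with sums of 7156 CPM in SNa, 7174 CPM in SKF and 11130 CPM in control and a median of -0.09. It included nes at 0.22 and glulb, glutamine synthetase, at -0.24. Genes that mark fibroblasts and mural cells were far more abundant, at 69202 CPM in SNa, 69730 CPM in SKF and 43503 CPM in control over 25 members (13 intervals wholly below 0, 6 above). These were 52% and 24% of that list, against 16.7% and 8.49% of all members, and 22.6% and 11.6% at 10 CPM or more. In bulk RNA, fewer cells of a type and less RNA per cell cannot be told apart. Of 23 microglia and leukocyte markers, 11 had no reads, among them csf1r and mpeg1, and 7 were members (705 CPM in SNa, 641 CPM in SKF and 642 CPM in control, mostly apoeb). Neuron markers summed to 194 CPM in SNa, 192 CPM in SKF and 177 CPM in control over 14 members, with dcx and tubb3 unread. Endothelial markers summed to 470 CPM in SNa, 490 CPM in SKF and 435 CPM in control over 9 members, with kdrl and pecam1 unread. Epidermis and keratin markers summed to 8566 CPM in SNa, 8446 CPM in SKF and 9534 CPM in control over 13 members. That was above the radial glia sum in SNa and SKF and below it in control. Skeletal muscle markers summed to 658 CPM in SNa, 597 CPM in SKF and 438 CPM in control over 6 members.

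Lens and pigment cell markers lay on opposite sides of 0. All 13 lens members were above 0 (4 intervals wholly above 0, median 0.26), with sums of 122 CPM in SNa, 106 CPM in SKF and 1295 CPM in control, and 14 of the 45 lens entries had no reads. The crystallin cryba1b, the highest named gene, had 11.8 CPM in SNa, 8.31 CPM in SKF and 111 CPM in control (log2 0.51, interval 0.30 to 0.72). All 5 pigment members were below 0 (3 intervals wholly below 0, median -0.46), with sums of 13.6 CPM in SNa, 19.4 CPM in SKF and 11.04 CPM in control, and the melanosome enzyme tyrp1b had 6.21 CPM in SNa and 9.64 CPM in SKF (log2 -0.64). Of all members 43.4% were above 0 and 56.6% below. Intervals wholly above 0 were 30.8% of the lens list, against 8.49% of all members. Those wholly below 0 were 60% of the pigment list, against 16.7% of all members. The part of lens and pigment genes in the other differences was not tested.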

How the data were processed

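Poly(A) RNA of 10 cultures was sequenced as read pairs. The authors pooled replicates, assembled transcripts with Trinity, clustered them with CD-HIT, annotated them with BLAST against chordate proteins and compared groups with DESeq. No source used here names the aligner or the read counter. The deposited expression signal is the pooled reads of a group divided by a size factor, separately in the report of SNa against control and that of SKF against control; the deposited percent identity is that of the protein hit. The authors' fold changes and p-values were not used.

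Every value was a whole multiple of the smallest in its column (within 0.01), which gave reads back for 100% of values, and control reads were equal in both reports for 100% of 164919 transcripts. The reports were joined to 170956 transcripts, of which 51399 carried a symbol, and summed per symbol. CPM used all reads of a pool. Intervals are exact (Clopper-Pearson) on fragments (reads divided by 2, since mates were counted apart), and a pool at 0 was set to a floor of 3 reads. The intervals and floors cover counting error only. No replicate values were used, so n is 1 per group and no test, leave-one-out or pairing was possible. A difference was called at 2-fold, without a test.

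Named genes, at 10 CPM or more and leaving out clone and locus names, were the 15 highest and 15 lowest log2, the 10 largest CPM differences each way, up to 4 members of 5 CPM or more from each of 66 lists, and 6 radial glia markers. Other genes of a described list are given for completeness and were chosen after their values were seen, as were the limits of 1.5-fold and 1.25-fold. The members and lists were chosen with earlier results of these data known. The calculation was tested on simulated pools. Python 3 with numpy, pandas, scipy and matplotlib was used. The alternatives tried were another total, median centring, other minimum levels, a pseudocount, 1 transcript per symbol, transcripts in both reports, hits of 80% identity, transcripts numbered below or above the median number and, added later, gene names taken from the protein description.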

Additional observations from a re-analysis of the deposited data

Results flagged for a closer look

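Transcripts without a gene symbol stood outside the comparison of symbols. Among 13949 of them with 200 reads or more in the SNa and SKF pools together, 30 were at least 2-fold higher in SNa (0.215%) and 18 at least 2-fold lower (0.129%). Of the 30, 29 were also above the control pool, and 0 of these 29 had a protein hit. The most abundant was unigene 7973, with 272 CPM in SNa, 5.78 CPM in SKF and 3.41 CPM in control (log2 SNa over SKF 5.56). Unigene 61619 had 94.9 CPM in SNa, 3.26 CPM in SKF and 1.66 CPM in control (log2 4.86), and unigene 253 had 94.3 CPM in SNa, 2.83 CPM in SKF and 1.75 CPM in control (log2 5.06). Each is 1 pooled value per group, so it is not known whether 1 culture or all 3 carried these reads.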

How the results depend on the processing

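No paired analysis was possible because the files hold pooled columns with no value per culture, and for the same reason no culture was left out. As reported, 8 symbols were at least 2-fold higher and 20 at least 2-fold lower in SNa, 12 list medians were at -0.1 or below, and at 10 CPM or more 23 symbols were at least 1.5-fold lower and 0 higher. With CPM of reads on symbols only, 18 were 2-fold higher. With the minimum at 10 CPM, 0 were 2-fold higher and 4 lower, and with no minimum 658 higher and 641 lower. A pseudocount of 0.5 CPM gave 3 higher and 4 lower, and hits of 80% identity or more gave 3 higher. Scaling by the median of ratios, or counting 1 transcript per symbol, gave 1 symbol 1.5-fold higher at 10 CPM or more. Transcripts numbered below the median gave 3 higher and 45 lower at 2-fold and 25 list medians at -0.1 or below. Those numbered above it gave 30 higher and 6 lower at 2-fold, 7 list medians, and 10 lower and 1 higher at 1.5-fold. Gene names from the protein description, chosen after seeing the data, gave 9, 24, 18, 29 and 0 in the order first given. The causes of these differences were not tested. The scalings shifted the median by 0.01 and 0.02 on the log2 scale. The 30 genes at the extremes kept their sign under every alternative that gave them a value. They were picked for large differences in the same reads, so a kept sign was likely beforehand and is only a description. List medians had another sign in 13 of 64 lists for transcripts numbered above the median number and in 6 of 65 for those below it. At 80% identity the sign was another in 6 of 64 lists, and under the others in 0 to 5 lists. Among the 13 were ER folding (-0.02), axon guidance (0.01), nuclear receptors (0.001), ion channels (0.04), neuron markers (0.15) and mitosis (0.18), each with those transcripts. Depth limits the symbols under 3 CPM, which were 22 of the 28 past 2-fold, and pooling leaves the spread between cultures unknown for all of them.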
